A study of Mus musculus with 18 samples.

Results

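Stearoyl-CoA desaturase is encoded in the mouse by the 4 genes Scd1, Scd2, Scd3 and Scd4. These 4, of 33440 genes quantified, were followed in 18 RNA-seq libraries, and they were chosen from their levels and differences in these same libraries, so that every value of theirs is a description without a test. In the first experiment, adipocytes were differentiated from the stromal vascular fraction (SVF) of inguinal fat (iWAT) of C57BL/6 mice that carry IRF3-2D, a constitutively active Irf3 allele that is silent until Cre recombines it. Cultures received an adeno-associated virus (AAV) with GFP (WT, 3 libraries) or with Cre (FI3OE, 3 libraries). Both groups therefore carried the allele and a virus, both were induced with insulin, IBMX, dexamethasone and rosiglitazone and kept in insulin and rosiglitazone, and FI3OE differed from WT in Cre as well as in active IRF3. In the second, ribosome-bound RNA of adipocytes was taken by translating ribosome affinity purification (TRAP) from epididymal fat (eWAT) of C57BL/6 mice fed a high-fat diet (HFD) for 8 weeks at thermoneutrality, with adipocyte knockout of Irf3 (FI3KO, 6 libraries) or without it (WT, 6 libraries). Both genotypes carried the adipocyte NuTRAP tag, which Cre from the adiponectin gene switches on. The diet length is that of the series description. The methods describe young adult male mice and a longer diet for the metabolic studies, and do not say which of this holds for the TRAP animals. For the cultures they name mice of both sexes in one place and male mice in another.

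Stearoyl-CoA desaturases are enzymes of the endoplasmic reticulum membrane that place a single double bond in saturated fatty acyl-CoA, turning stearoyl-CoA into oleoyl-CoA and palmitoyl-CoA into palmitoleoyl-CoA. The electrons come from NADH through cytochrome b5 reductase and cytochrome b5, and the products are used for triglycerides, phospholipids and cholesteryl esters. Scd1 is the major form of mature adipocytes and of liver and a target of SREBP-1c and LXR. Scd2 is known from brain and from early fat cells, Scd3 from sebaceous and Harderian glands, and Scd4 from heart.

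The genes lie together on chromosome 19 (GRCm38). Scd3 (chr19:44203269-44244016), Scd2 (chr19:44293674-44306864) and Scd4 (chr19:44333092-44346743) are on the plus strand, and Scd1 (chr19:44394455-44407879) is on the minus strand, within a span of 204.6 kb. The main transcript of each has 6 exons, and the coding sequences hold 1068 bases in Scd1, 1077 in Scd2, 1080 in Scd3 and 1062 in Scd4. Scd1 and Scd3 are the closest pair, with 91.5% identical coding bases, and Scd2 and Scd4 the most distant, with 84.5%. The stretch in which they are hardest to tell apart runs from exon 4 into exon 5 and holds the longest run shared by the coding sequences of Scd1 and Scd3, 185 bases. It is shown for each member with 20 bases on either side, because it is where reads of an abundant member could be given to a rare one. Capitals mark bases that differ from Scd1, the sequences are from the GENCODE M21 transcripts, and the coordinates span the intron between both exons.
Scd1, chr19:44400343-44401885, minus strand: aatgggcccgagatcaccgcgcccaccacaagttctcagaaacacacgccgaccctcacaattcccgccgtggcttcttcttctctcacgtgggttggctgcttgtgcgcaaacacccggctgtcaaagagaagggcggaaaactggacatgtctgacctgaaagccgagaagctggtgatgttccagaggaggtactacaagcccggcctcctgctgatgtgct
Scd2, chr19:44299622-44301243, plus strand: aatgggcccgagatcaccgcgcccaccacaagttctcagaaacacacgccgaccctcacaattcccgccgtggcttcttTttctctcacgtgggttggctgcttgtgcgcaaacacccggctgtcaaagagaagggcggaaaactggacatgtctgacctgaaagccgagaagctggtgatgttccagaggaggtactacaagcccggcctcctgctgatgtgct
Scd3, chr19:44235784-44238407, plus strand: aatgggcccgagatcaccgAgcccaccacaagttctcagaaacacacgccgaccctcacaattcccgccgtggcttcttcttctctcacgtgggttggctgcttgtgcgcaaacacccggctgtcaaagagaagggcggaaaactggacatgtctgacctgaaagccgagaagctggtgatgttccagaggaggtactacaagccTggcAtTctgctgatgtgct
Scd4, chr19:44338923-44341252, plus strand: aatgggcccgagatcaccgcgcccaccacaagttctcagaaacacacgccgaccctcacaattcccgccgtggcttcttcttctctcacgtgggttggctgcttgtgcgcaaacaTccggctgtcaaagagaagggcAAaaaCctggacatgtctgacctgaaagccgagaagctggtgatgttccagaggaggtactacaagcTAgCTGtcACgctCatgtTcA
Over these 225 bases Scd2 differs from Scd1 at 1 base, Scd3 at 4 and Scd4 at 14. Outside such stretches the transcripts are distinct. Of all words of 50 bases in the main transcript, 95.3% in Scd1, 96.2% in Scd2, 93.6% in Scd3 and 96.6% in Scd4 occur in no other member.

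The libraries held between 21541334 and 40490283 estimated reads. Levels are given as CPM (estimated reads of a gene per 1000000 reads of the library) within a gene and as TPM, the share per 1000000 transcripts, which accounts for transcript length, between genes. Irf3 itself was checked first. Its log2 fold change was 0.73 in FI3OE (adjusted p = 3.3e-07, edgeR) and -0.35 in FI3KO (adjusted p = 0.0198, edgeR), where CPM overlapped between genotypes and the value changed sign to 0.71 with an offset for transcript length. Irf3 in FI3KO did not pass with the replicate number as a block, and its adjusted p reached 0.452 over the alternative fits (edgeR or DESeq2). In TRAP, the transcript Irf3-202 was at 0 TPM in all 6 FI3KO libraries and at 13.3 to 22.4 TPM in WT, and in the cultures it was at 109.6 to 119.2 TPM in FI3OE and 49.6 to 50.9 TPM in WT. Other Irf3 transcripts went either way in TRAP. Irf3-207, with a retained intron, was at 3.86 to 7.49 TPM in FI3KO and 13.6 to 17.9 TPM in WT, the short Irf3-211 was at 28.2 to 68.9 TPM in FI3KO and 0 to 2.66 TPM in WT, and Irf3-201 overlapped, at 0 to 4.27 TPM and 0.443 to 3.44 TPM. Adipocyte markers were high in every group. The 14 genes summed to 14060 to 14168 CPM in FI3OE and 14715 to 14898 CPM in WT cultures, without overlap, and 7 of them fell and 4 rose in FI3OE (edgeR, adjusted p of at most 0.05). In TRAP they summed to 39329 and 41654 CPM in FI3KO and 49095 and 49731 CPM in WT in replicates 1 and 2, and to 44392 to 46012 CPM and 43784 to 50720 CPM, with overlap, in replicates 3 to 6. Of the 14, 6 rose and 1 fell in FI3KO over all libraries, the largest being Cfd, which encodes adipsin, at 1.83 and Lep, which encodes leptin, at -1.63 (adjusted p = 0.0048 and 0.0001, edgeR). The cultures also held 8 preadipocyte and fibroblast markers at 8209 to 8317 CPM in FI3OE and 8657 to 8951 CPM in WT, again without overlap. Most of that sum was Col1a1, which fell by 0.08, while Cd34 rose by 0.72 and Anxa3 by 0.42, and the median over the list was 0.13. The 13 macrophage markers summed to 2451 to 2481 CPM in FI3OE and 2449 to 2606 CPM in WT cultures, with a median log2 fold change of 0.08. Of them 4 rose, Fcgr1 by 0.51, Mpeg1 by 0.49, C1qa by 0.26 and C1qc by 0.15. A further 3 fell, Mrc1 by 0.87, Itgam by 0.59 and Csf1r by 0.45. The part of these cells in the values of the desaturases was not tested. TRAP replicates 1 and 2 stood apart from replicates 3 to 6 in both genotypes, so the members and the pathway genes described most fully are also given for each set. In WT, replicates 3 to 6 also varied among themselves. Replicates 3 and 5 differed by a chi-square per degree of freedom of 115.1, beside 67.9 to 118.4 between the sets. The samples are labelled as biological replicates. WT TRAP replicates 1 and 2 were the closest pair by the same measure, at 2.49, against 7.81 to 118.4 for the other WT TRAP pairs. In bulk RNA, fewer cells of a type and less RNA per cell cannot be told apart.

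Scd1 was among the most abundant transcripts of these adipocytes. It ranked between place 2 and place 4 of all genes by TPM in WT cultures and in both TRAP groups, and between place 4 and place 7 in FI3OE. In WT cultures its level was 13645, 14183 and 14236 TPM, and in WT TRAP it ranged from 11423 to 16795 TPM with a median of 14144. The WT cultures and WT TRAP thus overlapped in Scd1, although tissue, depot and method differed. Scd1 alone took 3.71% to 3.83% of all reads in WT cultures and up to 7.06% in FI3KO TRAP. Scd2 was the second form. Its level was 1466, 1552 and 1608 TPM in WT cultures, and between 363 and 914 TPM in WT TRAP. Scd2 made up 9.70% to 10.2% of the family's TPM in WT cultures and 2.12% to 6.22% in WT TRAP, ranges that did not overlap. Scd3 was low, at 6.22, 7.75 and 11.7 TPM in WT cultures and between 0.386 and 1.57 TPM in WT TRAP. Scd4 was lower still, at 0.907, 0.943 and 1.23 TPM in WT cultures and between 0.0799 and 0.176 TPM in WT TRAP. In each WT group the order by TPM was Scd1, Scd2, Scd3 and Scd4, and neighbours in that order did not overlap between libraries.

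**Figure D1:**
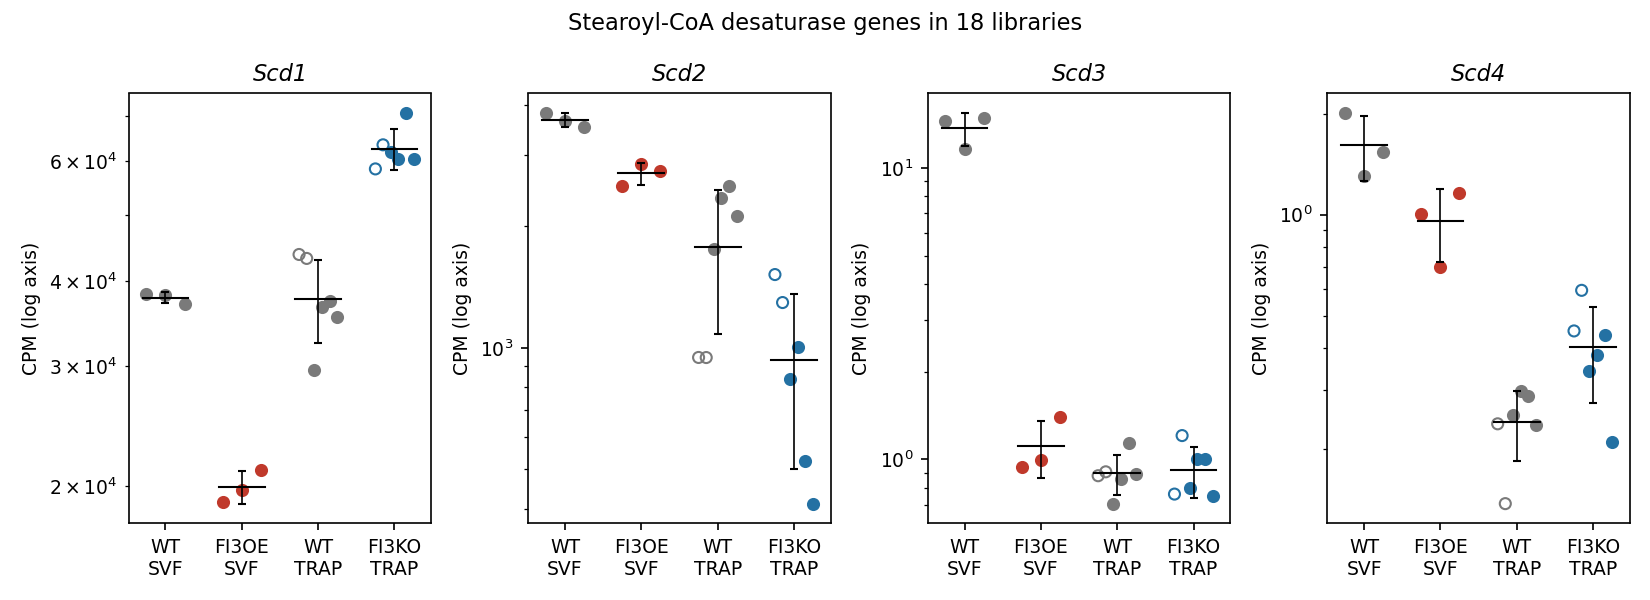
CPM of each member in each library on a log axis, with the mean as a line and the SD as a bar (n = 3 in the cultures, n = 6 in TRAP). Open circles are TRAP replicates 1 and 2. Scd1 was lowest in FI3OE and highest in FI3KO TRAP, and Scd3 was above 11 CPM only in WT cultures.

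The first comparison asks what constitutively active IRF3 does to the desaturases of cultured adipocytes. All 4 were lower in FI3OE than in WT, and in each the 3 FI3OE libraries lay below the 3 WT libraries. Of all 16105 genes tested in this comparison, 49.8% did not overlap between the groups, 25.7% being lower and 24.1% higher, and 3.62% passed both cutoffs, for the adjusted p (0.05) and for the size of the change (1 on the log2 scale). Scd1 was 1.87-fold lower and Scd2 1.34-fold lower. Scd3 was 11.9-fold lower and held the third largest decrease of all genes tested. Scd4 was 1.65-fold lower at a level close to 1 CPM.

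Scd1 was at 18973, 19739 and 21131 CPM in FI3OE and at 37053, 38176 and 38284 CPM in WT. The fitted log2 fold change was -0.91 (standard error 0.035). The highest FI3OE library lay far below the lowest WT library, and the spread within each group was small, with a coefficient of variation of 5.48% in FI3OE and 1.80% in WT.

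Scd2 was at 2522, 2734 and 2861 CPM in FI3OE and at 3531, 3645 and 3816 CPM in WT. Its log2 fold change was -0.42 (standard error 0.046), smaller than that of Scd1. With the larger decrease of Scd1, the share of Scd2 in the family's TPM was 12.9% to 13.9% in FI3OE and 9.70% to 10.2% in WT, without overlap. The TPM of the whole family was 7874 to 8767 in FI3OE and 15120 to 15804 in WT.

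Scd3 was at 0.942, 0.999 and 1.39 CPM in FI3OE and at 11.6, 14.5 and 14.9 CPM in WT. These values rest on 22.3 to 51.5 estimated reads per FI3OE library and 250.6 to 378.0 reads per WT library. The log2 fold change was -3.58 (standard error 0.16). Since reads of Scd1 could be given to Scd3 in the shared stretches, the ratio of both was computed. WT cultures held 304.8 to 401.6 Scd3 reads per 1000000 Scd1 reads, FI3OE held 49.6 to 66.0, and the TRAP libraries, with Scd1 at 29640 to 70605 CPM, held 12.3 to 30.5. How reads were shared between the members was not tested, and the few Scd3 reads outside WT cultures are uncertain in their assignment. An antisense gene, AC125101.1, overlaps Scd3, and these libraries do not mark strand. Its mean level was 0.593 CPM in WT and 0.210 CPM in FI3OE, beside 13.7 and 1.11 CPM for Scd3. Its part in the Scd3 values was not tested.

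Scd4 was at 0.700, 1.01 and 1.16 CPM in FI3OE and at 1.31, 1.53 and 2.01 CPM in WT, from 19.0 to 48.1 reads per library. The log2 fold change was -0.72 (standard error 0.27), the least precise of the 4. The ratio of Scd4 to Scd3 reads was 0.103 to 0.139 in WT and 0.701 to 1.07 in FI3OE, so the 2 rare members reached a like level in FI3OE. Reads of Scd4 per 1000000 Scd1 reads overlapped between the groups, at 34.2 to 52.5 in WT and 35.5 to 55.0 in FI3OE.

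Markers of sebocytes and mammary epithelium were looked at beside Scd3, and markers of the Harderian gland were not. Of 12 sebocyte and mammary epithelial markers, Awat1, Krt5, Krt14, Krt8, Krt18, Epcam and Cdh1 held at most 3 reads in every library of the cultures. The other 5, Awat2, Far2, Krt79, Mc5r and Elf5, were above 3 reads in some library of each culture group. The summed level of the list was 116.1 to 133.6 CPM in WT and 77.2 to 102.7 CPM in FI3OE, and most of it was Mc5r, a melanocortin receptor, at 116 CPM in WT and 84.6 CPM in FI3OE. Mc5r fell by 0.44 on the log2 scale (adjusted p = 0.0025, edgeR quasi-likelihood test). Its part in the Scd3 result was not tested.

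The second comparison asks what loss of IRF3 does to the desaturases on adipocyte ribosomes of mice fed the HFD. Scd1 was higher in FI3KO than in WT, Scd2 was lower with overlap between the groups, and Scd3 was at a like low level in both. Scd1 was 1.71-fold higher and Scd2 1.83-fold lower. Scd4 did not pass the filter on low counts in the fit of all 12 libraries, and its levels are given in place of a fold change.

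Scd1 ranged from 58452 to 70605 CPM in FI3KO, with a median of 61179, and from 29640 to 43770 CPM in WT, with a median of 37017. The 6 FI3KO libraries lay above the 6 WT libraries, as was the case for 5.39% of the 13624 genes tested here. A further 9.84% were lower without overlap, 15.2% in all did not overlap, and 6.61% passed both cutoffs. The fitted log2 fold change was 0.77 (standard error 0.11). The separation was seen in both sets of replicates, for which the share of all genes without overlap is not given here. In replicates 1 and 2, FI3KO was at 58452 and 63412 CPM and WT at 43189 and 43770 CPM, and the log2 fold change was 0.55. In replicates 3 to 6 it was 0.91, with FI3KO at 60432 to 70605 CPM and WT at 29640 to 37426 CPM. Scd1 was thus lower with active IRF3 and higher without IRF3, in experiments that differ in depot, diet and method, and these are the differences by which the family was chosen.

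Scd2 ranged from 411 to 1519 CPM in FI3KO, with a median of 920, and from 946 to 2515 CPM in WT, with a median of 1941. The log2 fold change was -0.87 (standard error 0.34). The direction depended on the libraries. In replicates 1 and 2, Scd2 was higher in FI3KO, at 1295 and 1519 CPM, than in WT, where it was at 946 and 947 CPM, a log2 fold change of 0.64. In replicates 3 to 6 it was lower in FI3KO, at 411 to 1004 CPM, than in WT, at 1761 to 2515 CPM, a log2 fold change of -1.62. Neither set overlapped within itself, and the difference between the sets was not tested. The share of all genes without overlap is not given for sets this small, so the separation is a description.

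**Figure D2:**
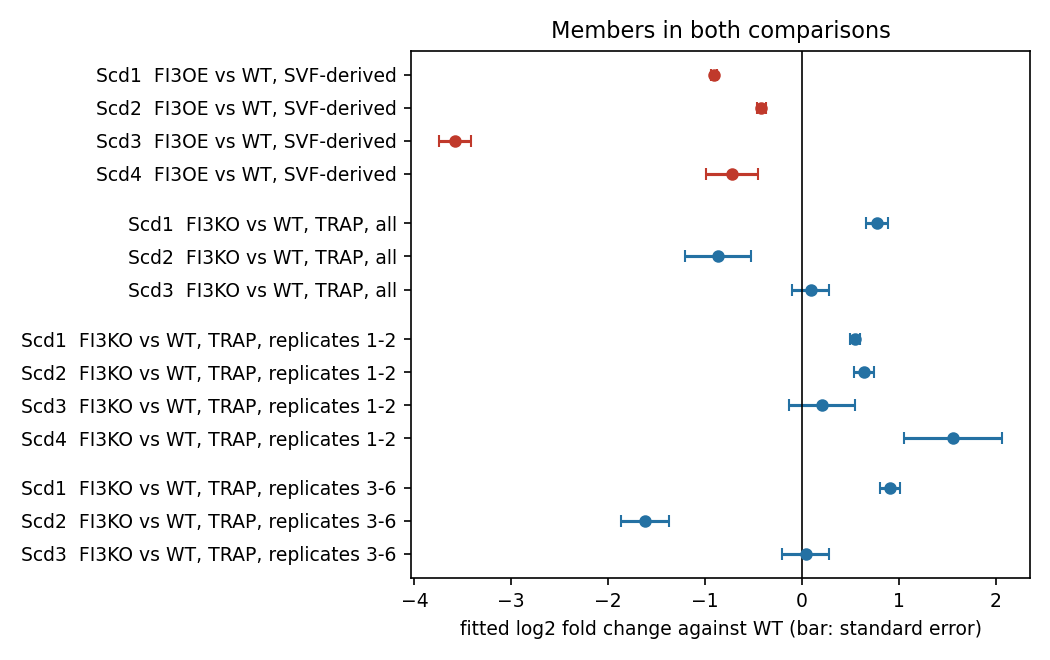
Fitted log2 fold changes of the members against WT, with the standard error as a bar. The TRAP comparison is shown with all libraries and for replicates 1 and 2 and replicates 3 to 6 apart. Scd1 lies on 1 side of 0 within each experiment and each set, while Scd2 in TRAP moves from 0.64 to -1.62. Scd4 passed the filter in the fit of replicates 1 and 2 alone (1.56, standard error 0.50), from very few reads.

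Markers of connective tissue were set beside Scd2. The summed level of 8 preadipocyte and fibroblast markers was 578 and 582 CPM in WT replicates 1 and 2 and 1056 to 1552 CPM in WT replicates 3 to 6. In FI3KO it was 506 and 585 CPM in replicates 1 and 2 and 184 to 320 CPM in replicates 3 to 6. In replicates 3 to 6 the sum was thus lower in FI3KO, as Scd2 was, whereas in replicates 1 and 2 it overlapped between the genotypes while Scd2 was higher in FI3KO. Of the 7 markers tested over all libraries, 3 fell in FI3KO, Col1a1 among them, and Anxa3 rose by 1.05 without overlap (adjusted p = 0.0032, edgeR). Of this list, Dlk1 held at most 3 reads per TRAP library, and Col1a1, which encodes an alpha chain of type I collagen, made up most of the sum. Col1a1 was the gene most like Scd2 over the 18 libraries once group means were removed, with a Pearson r of 0.98 among 11346 genes. It was followed by Tmem132a, Kcnj2, Prune2 and Adamts15, with r between 0.95 and 0.98. This r leaves out the difference between genotypes. With Col1a1 it was 0.98 over the 12 TRAP libraries, 0.95 over replicates 3 to 6 (8 libraries) and 0.09 over the 6 culture libraries. The points share the library and its depth, and sets of replicates were not removed from r. By chi-square per degree of freedom, FI3KO libraries were closest in pairs 1 and 2 (31.9), 3 and 4 (16.4), and 5 and 6 (15.6). Other FI3KO pairs were at 51.9 to 243.7, so the libraries are not that many separate points. A link of Scd2 with Col1a1 beyond these sets was not tested. For Scd1, r with Col1a1 was -0.53 in TRAP and 0.004 over replicates 3 to 6, that with the macrophage sum was -0.60 and -0.46, and that with the adipocyte sum was 0.10 and -0.57. The 13 macrophage markers summed to 14.9 to 48.9 CPM in FI3KO and 42.4 to 114.5 CPM in WT, with 10 of 11 tested lower in FI3KO, and Fcgr1 held at most 3 reads per FI3KO library. In replicates 1 and 2 this sum overlapped, at 37.8 and 48.9 CPM in FI3KO and 42.4 and 43.2 CPM in WT, and in replicates 3 to 6 it was 14.9 to 18.1 CPM in FI3KO and 79.4 to 114.5 CPM in WT. Its r with Scd2 was 0.76 over TRAP and -0.56 over replicates 3 to 6. The r of the adipocyte sum with Scd2 was -0.77 and -0.55. With the Scd1 reads taken out of the library totals, a setting chosen after seeing the data, the difference of Scd2 in mean log2 CPM was -0.93, against -0.97 with those reads kept.

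**Figure D3:**
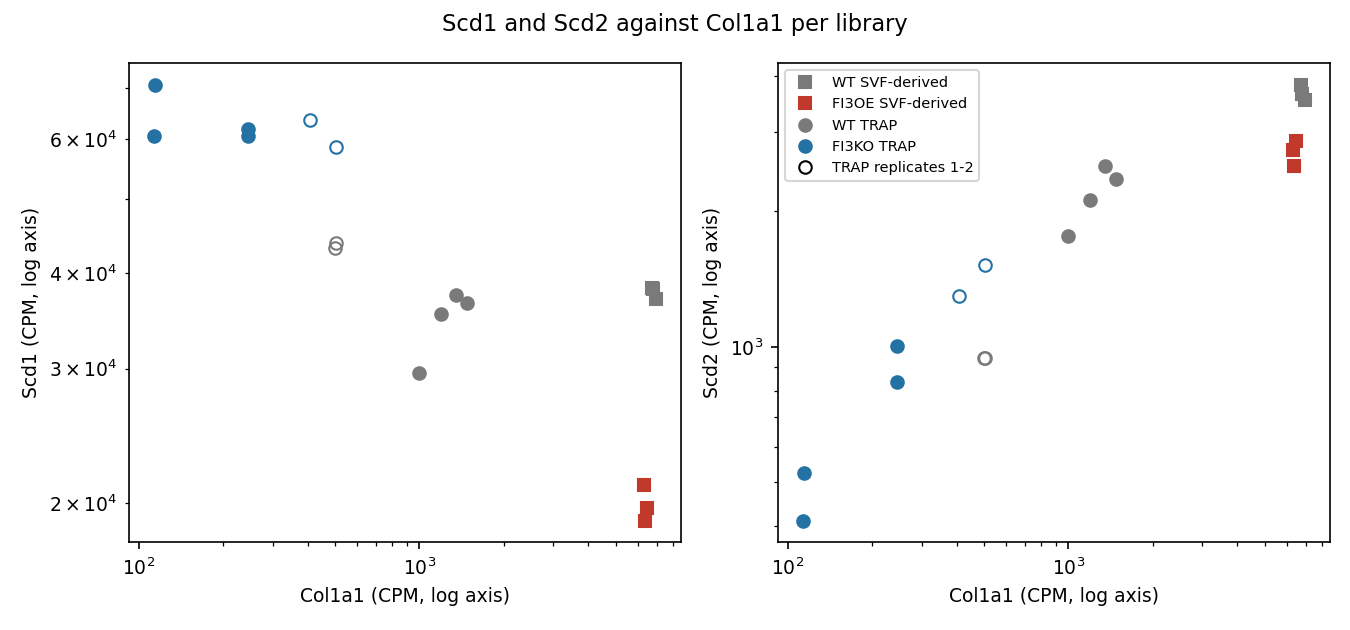
CPM of Scd1 (left) and Scd2 (right) against CPM of Col1a1 in each library, both on log axes. Squares are cultures, circles are TRAP libraries and open circles are TRAP replicates 1 and 2. Within TRAP, Scd2 was at 411 CPM in the library with the least Col1a1 (113 CPM) and at 2356 CPM in that with the most (1480 CPM). At 501 to 506 CPM of Col1a1, WT replicates 1 and 2 held less Scd2 (946 and 947 CPM) than FI3KO replicates 1 and 2 at 407 to 504 CPM (1295 and 1519 CPM).

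The genes most like Scd1 by the same measure were Man2c1 (r = 0.93), Abcc3, Chic1, Oard1 and Polr2a, the last 4 with r between 0.86 and 0.88. Scd1 and Scd2 had an r of -0.50. For Scd3 the highest r was 0.64, for Map3k15, and with so few reads in 15 of the 18 libraries the order of genes below it carries little. The TPM of Scd1 relative to that of Scd2 was 39.8 to 150.8 in FI3KO TRAP and 15.1 to 46.2 in WT TRAP. The ratio overlapped in replicates 1 and 2, at 39.8 and 51.0 in FI3KO and 44.6 and 46.2 in WT, and in replicates 3 to 6 it was 62.3 to 150.8 in FI3KO and 15.1 to 17.0 in WT.

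Scd3 ranged from 0.746 to 1.21 CPM in FI3KO, with a median of 0.902, and from 0.705 to 1.14 CPM in WT, with a median of 0.885. The groups overlapped, and the log2 fold change was 0.09 (standard error 0.19) from 19.2 to 40.7 reads per library. Scd4 ranged from 0.211 to 0.595 CPM in FI3KO, with a median of 0.409, and from 0.138 to 0.298 CPM in WT, with a median of 0.245. These values come from 5.22 to 18.5 reads per library. In replicates 1 and 2, FI3KO was at 0.450 and 0.595 CPM and WT at 0.138 and 0.238 CPM, and in replicates 3 to 6 the groups overlapped, at 0.211 to 0.436 CPM in FI3KO and 0.237 to 0.298 CPM in WT.

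Reads of Scd1 were almost all assigned to a single transcript, Scd1-201, which held at least 99.975% of them in every library. Scd2 differed between experiments. Scd2-202, a transcript annotated as subject to nonsense-mediated decay, took 9.54% to 10.1% of Scd2 reads in WT cultures and 8.70% to 10.2% in FI3OE, which overlapped. In TRAP it took at most 0.333% in FI3KO. In WT TRAP the median was 0.452%, and the highest share was 5.11%, in replicate 3, and 1.85% without that library. Cultures gave total RNA and TRAP gave ribosome-bound RNA, and depot and method cannot be told apart in this difference. Of Scd3 reads, 90.3% to 100% in WT cultures belonged to Scd3-201, and in TRAP between 60.9% and 100% did, from few reads. Scd4 reads belonged to Scd4-201 in TRAP, and in cultures a transcript with a retained intron, Scd4-202, took up to 13.9%.

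Genes around the family were read beside it. In the cultures, Bloc1s2, which begins 56.8 kb before the start of Scd3 on the other strand, was higher in FI3OE (log2 fold change 0.54, adjusted p = 0.0008, edgeR), and Erlin1 was lower (-0.24, adjusted p = 0.0017, edgeR). Chuk, Cwf19l1 and Ndufb8 had log2 fold changes of 0.01, -0.12 and -0.05 in the cultures, and Sec31b of -0.51 (standard error 0.22, adjusted p = 0.094, edgeR). In TRAP, Ndufb8 rose by 0.47 (adjusted p = 0.0022, edgeR) and Wnt8b, at 0.608 CPM in WT, fell by 1.20 (adjusted p = 0.0048, edgeR). Erlin1 was thus lower in FI3OE as the members were, and Bloc1s2 was higher.

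**Figure D4:**
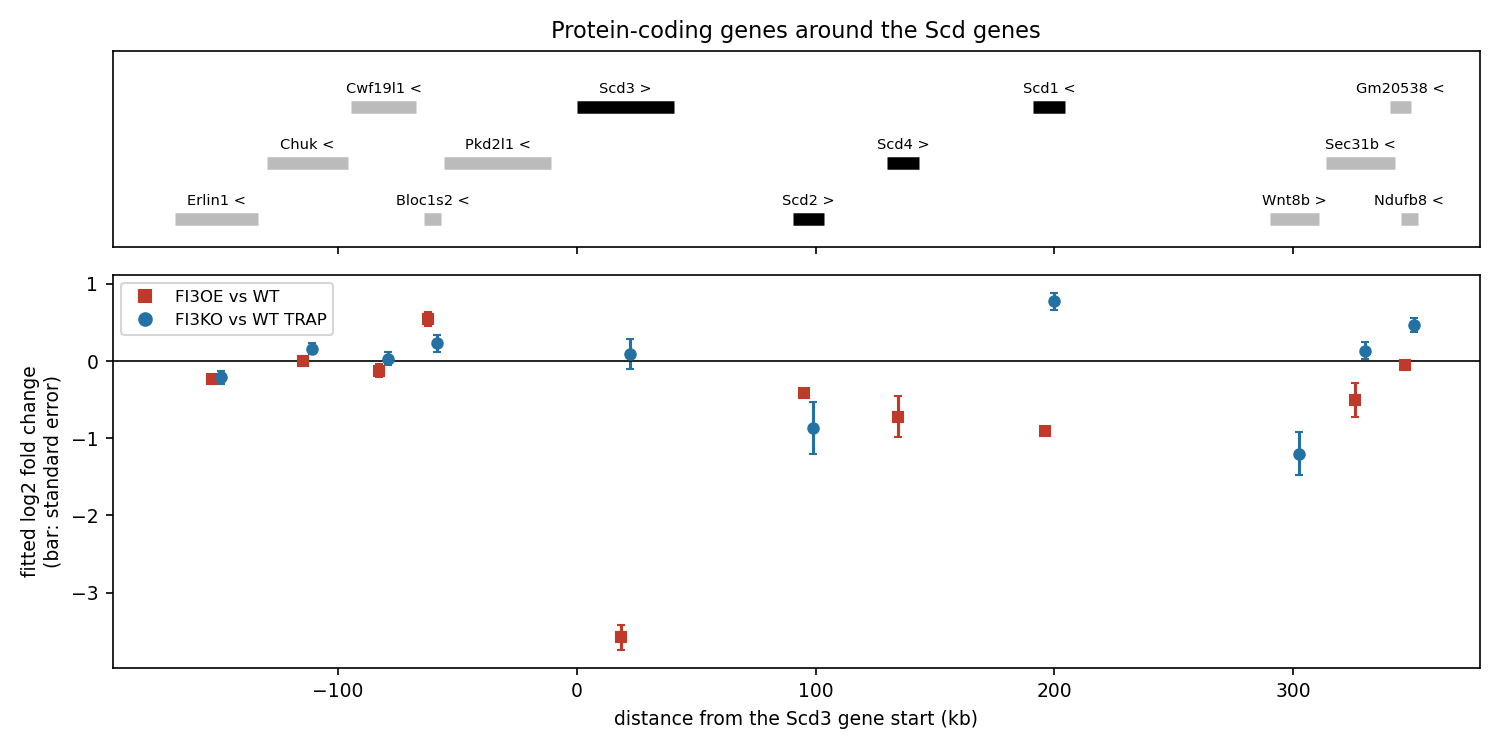
Protein-coding genes within 150 kb of the Scd genes (top, members in black, with the direction of transcription as an arrow) and their fitted log2 fold changes with standard errors (bottom), by distance from the start of Scd3. In FI3OE the members are at -0.42 to -3.58, while Bloc1s2 is at 0.54.

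Promoters from RefSeq (GRCm38.p6, 250 bases before to 50 bases after the start) were matched for 2 of the 4 members, Scd3 and Scd4. They are shown because both members were lower in FI3OE. The start of Scd4 differs between RefSeq and GENCODE. Its window opens at 44333076 and the GENCODE transcript Scd4-201 at 44333092, so most of the window lies within that transcript. The bases further before the GENCODE start were not searched. The letters of 7 motifs were searched for, 6 of them as a list of known promoter and factor elements and TTTAAA apart from that list. TTTAAA is the only one of the 7 found in either window. It reads the same on both strands, stands in 13.2% of all 32851 mouse promoters, and is marked by capitals.
Scd3 promoter, chr19:44203038-44203337, plus strand: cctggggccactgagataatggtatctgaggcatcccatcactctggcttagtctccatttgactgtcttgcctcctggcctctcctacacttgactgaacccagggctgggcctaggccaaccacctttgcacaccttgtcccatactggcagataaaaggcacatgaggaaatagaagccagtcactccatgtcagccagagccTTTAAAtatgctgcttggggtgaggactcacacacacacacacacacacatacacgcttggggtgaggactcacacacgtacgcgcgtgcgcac
Scd4 promoter, chr19:44333076-44333375, plus strand: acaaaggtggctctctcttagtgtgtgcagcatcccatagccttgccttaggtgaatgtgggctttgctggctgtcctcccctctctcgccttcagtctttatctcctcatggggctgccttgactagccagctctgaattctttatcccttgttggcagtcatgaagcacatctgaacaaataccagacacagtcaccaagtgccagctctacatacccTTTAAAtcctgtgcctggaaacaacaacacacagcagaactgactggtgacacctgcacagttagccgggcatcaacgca
The 6 listed motifs had 0 matches in both windows on both strands. They were CCAAT (in 37.4% of all promoters), the TATA box TATAAA (13.6%), the E-box CACGTG (7.15%), the sterol response element TCACNCCAC (1.24%), the interferon response core, which is GAAA repeated after 2 free bases (3.44%), and the LXR element, which is AGGTCA repeated after 4 free bases (0.0152%). With 7 motifs searched in 2 windows, a match of a motif this common is a description of the letters only, and no match says only that the letters are not in these 300 bases.

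The other genes of the pathway were counted on lists grouped by role. Of 73 pathway genes tested in the cultures, 37 were higher and 17 lower in FI3OE at an adjusted p of at most 0.05, beside 20.2% and 16.8% of all genes tested. Their median log2 fold change was 0.11, beside -0.0047 over all genes. In TRAP, 16 of 70 were higher and 20 lower in FI3KO, beside 19.1% and 18.3% of all genes, with a median of -0.02. In the fit of all 18 libraries together, 20 of the pathway genes passed in the cultures. Of all genes, 1572 of 17289 passed there, against 5960 of 16105 in the fit of the cultures alone. Rose and fell below stand for an adjusted p of at most 0.05 by the edgeR quasi-likelihood test within each experiment.

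Most enzymes upstream of the desaturases were higher in FI3OE, where Scd1 was lower. Of 10 genes of fatty acid synthesis, 8 rose and 1 fell. Fasn, the fatty acid synthase, rose by 0.28 (adjusted p = 0.00036, edgeR), from 5804 CPM in WT to 6954 CPM, but had an adjusted p of 0.705 in the fit of all 18 libraries. Acly, which makes cytosolic acetyl-CoA, rose by 0.50 (adjusted p = 0.272 in the 18-library fit) and Pgd by 0.47, while Acacb fell by 0.24. Of 11 elongation genes, 8 rose and 1 fell. Hsd17b12, a reductase of the elongation cycle, rose by 0.66, and Elovl6, which makes the stearoyl chain that Scd1 desaturates, rose by 0.32 (adjusted p = 0.206 in the 18-library fit). In TRAP, Acaca and Acacb, the acetyl-CoA carboxylases, rose by 0.95 and 1.46 with Scd1, and Fasn was at 8040 CPM in FI3KO and 6759 CPM in WT (log2 fold change 0.29, adjusted p = 0.35, edgeR). Of 10 synthesis genes there, 4 rose and 2 fell, and of 9 elongation genes 1 rose, Elovl6 by 0.38, and 4 fell. The adjusted p of Elovl6 was between 0.0503 and 0.0526 without FI3KO replicate 3 or 4 or WT replicate 3, and 0.0993 in replicates 3 to 6.

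Among 7 other lipid desaturases, Fads1, which makes polyunsaturated fatty acids, was at 164 CPM in FI3OE and 172 CPM in WT (-0.04, adjusted p = 0.41, edgeR) and rose by 1.20 in FI3KO TRAP. Fads2 rose by 0.32 in FI3OE (adjusted p = 0.614 in the 18-library fit) and was at 2.70 CPM in FI3KO and 4.46 CPM in WT TRAP. Fads3 fell in both, by 0.48 in FI3OE and by 0.53 in FI3KO. Of the electron carriers, Cyb5a, cytochrome b5, did not pass the test in either experiment, with log2 fold changes of 0.03 and 0.05. Cyb5r3, its reductase, rose by 0.45 in FI3OE and fell by 0.52 in FI3KO. Cyb5r1 fell by 0.95 in FI3OE, and Cyb5b, the outer mitochondrial form, fell by 0.72 in FI3KO.

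Of 18 regulators of lipid synthesis, 7 rose and 6 fell in FI3OE, and 6 rose and 3 fell in FI3KO. Srebf1, which encodes SREBP-1, fell by 0.15 in FI3OE and rose by 0.19 in FI3KO, but neither held throughout. Its adjusted p was 0.4 in the 18-library fit for the cultures, and for TRAP it was 0.0536 to 0.0878 without FI3KO replicate 3, 4, 5 or 6 or WT replicate 3, 5 or 6, and 0.982 in replicates 1 and 2. Nr1h3, which encodes LXR alpha, rose by 0.32 in FI3OE and fell by 0.26 in FI3KO. Of the 4 genes listed here as LXR targets, which are not all of them, 2 rose and 1 fell in FI3OE. Abcg1 rose by 0.32, Smpdl3a by 0.19 and Abca1 fell by 0.20 (adjusted p = 0.45, 0.621 and 0.433 in the 18-library fit, edgeR). In FI3KO these were at 0.04, 0.01 and -0.11 (adjusted p = 0.87, 0.95 and 0.38, edgeR). Ppara fell by 1.12 in FI3OE, the one regulator past a log2 fold change of 1, and Thrsp rose by 0.46 in FI3OE and 0.71 in FI3KO. Of 10 esterification genes tested in each experiment, 6 rose and 3 fell in FI3OE and 3 rose and 4 fell in FI3KO. Gpam, which starts triglyceride synthesis, fell by 0.34 in FI3OE and rose by 0.65 in FI3KO.

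The TRAP calls on pathway genes above are over all 12 libraries. Acaca, Acacb, Fads1 and Thrsp passed in both sets of replicates. Gpam, Cyb5b, Cyb5r3 and Fads3 passed in replicates 3 to 6, and with replicates 1 and 2 alone they had adjusted p of 0.106, 0.0906, 0.0773 and 0.0515 (edgeR) in the same direction. Fads2 was at -1.35 in replicates 3 to 6 (adjusted p = 3.46e-05, edgeR) and at 0.27 in replicates 1 and 2 (adjusted p = 0.549), and Fasn was at 0.17 (adjusted p = 0.677) and 0.60 (adjusted p = 0.0107). Elovl6 was at 0.33 and 0.48 and passed in neither set (adjusted p = 0.0993 and 0.0654). Nr1h3, single marker genes and the neighbours are given over all 12 libraries only.

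**Figure D5:**
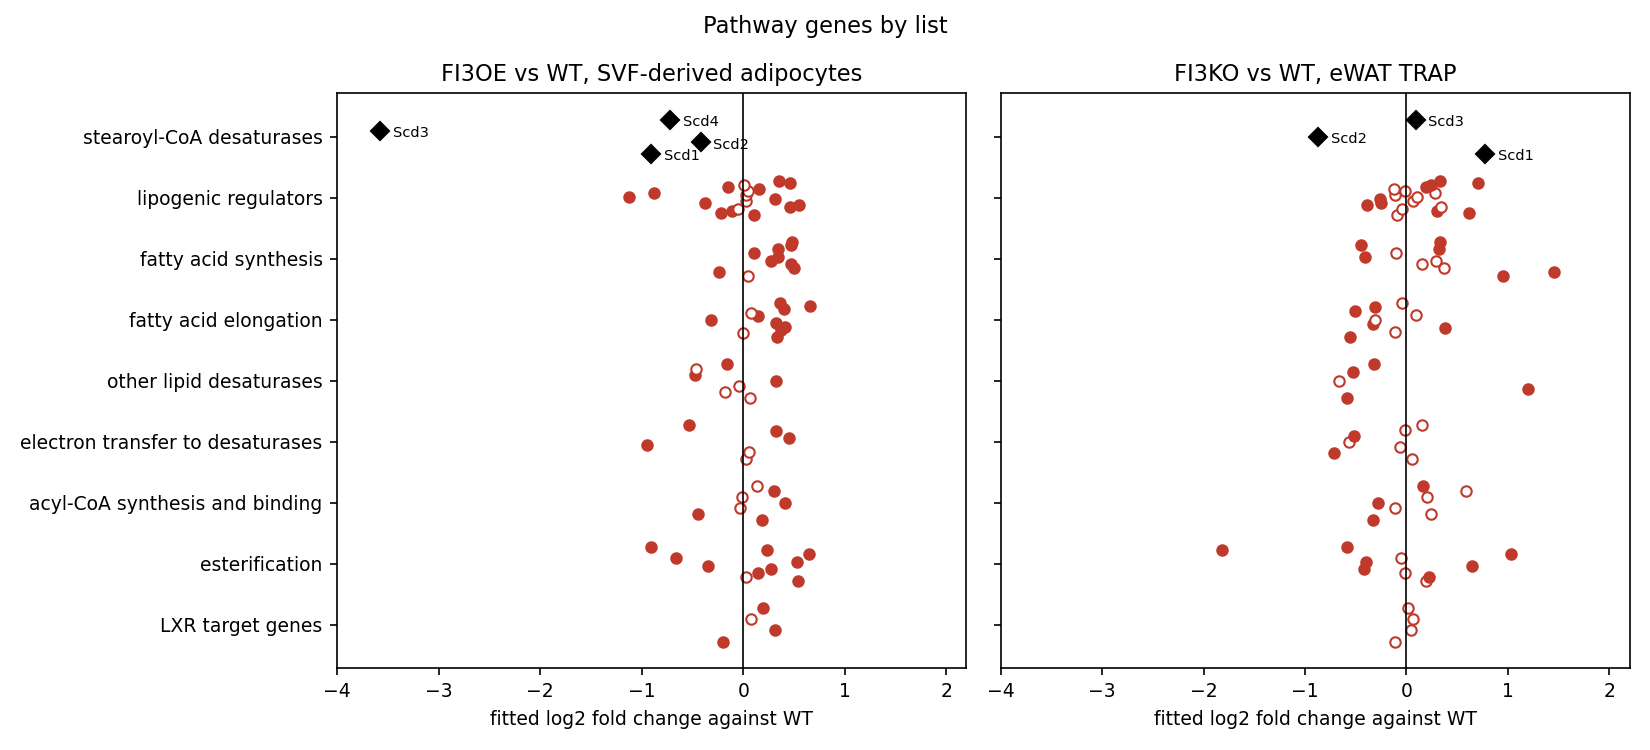
Fitted log2 fold change of each tested gene by list in FI3OE (left) and FI3KO TRAP (right). Filled circles have an adjusted p of at most 0.05, open circles do not, and black diamonds are the members, which were not tested. In FI3OE most synthesis and elongation genes lie right of 0 and all 4 members left of it.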

How the data were processed

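RNA was depleted of rRNA, made into Nextera XT libraries, which do not mark strand, and sequenced. Per the labels and methods, the authors trimmed reads with fastp and quantified them with Salmon (version 1.4.0) against GRCm38 (GENCODE M24), which gave tables of 118733 transcripts with deposited estimated counts, TPM and effective length. Transcripts were assigned to genes here with GENCODE M21, by identifier (117850 matched), and summed to 33440 genes. CPM are estimated counts per 1000000. In R 4.3.3, edgeR 4.0.16 was run on rounded counts (filterByExpr, TMM scaling, quasi-likelihood fit), with p-values adjusted by Benjamini-Hochberg over all genes tested, each experiment on its own, with no covariates and the study's cutoffs of an adjusted p of at most 0.05 and a log2 fold change of at least 1. Lists were counted at the adjusted p. Promoters were searched for 7 motifs, 6 from a list and TTTAAA outside it, and all 7 are reported. No column of another sample was used.

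The 4 members and all lists were chosen with earlier results of these data known, and nothing about the members is tested. Named genes were the members, Irf3, up to 4 genes with the largest change per list and comparison, the 5 most like each of Scd1 to Scd3 (mean log2 CPM of at least 1), the neighbours, and Srebf1, Fasn, Elovl6, Fads1, Fads2, Cyb5a and Cyb5r3. Nr1h3, marker genes, transcripts and, where that rule does not hold them, other genes of the lists were chosen after their values were seen. Alternatives were DESeq2 1.42.0 (size factors, Wald test), no filter, at least 10 counts in every library, a length offset, all 18 libraries in one fit, a replicate block, each library left out, no fold cutoff, and replicates 1 and 2 or 3 to 6 of TRAP. For the counts of genes, replicates 1 and 2 against 3 to 6 were also fitted as a term. Chosen after seeing the data was a library total without Scd1 reads. The fits were also run on simulated data, and results of that are not given here. Bars in the figures are SDs between libraries or standard errors of the fit, and hold variation between libraries. The read floor (3 reads) covers counting error only. Figures were drawn with matplotlib 3.10.9 and sequences aligned with Biopython 1.88 in Python 3.11.15.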

Additional observations from a re-analysis of the deposited data

Results flagged for a closer look

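Scd2 differed between sets of TRAP libraries. In replicates 1 and 2 the log2 fold change of FI3KO against WT came to 0.64, and that of replicates 3 to 6 to -1.62, with every FI3KO library above WT in the first set and below it in the second. The difference between the sets was not tested, and the share of all genes without overlap is not given for each set. Single libraries lay far from the rest of their group for 3 pathway genes in FI3KO TRAP, of 106 groups looked at, where chance gives about 5.3. Hsd17b12 had a lowest library at 187 CPM, Insig2 a lowest library at 146 CPM and Soat2 a highest library at 0.371 CPM.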

How the results depend on the processing

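The 4 members in the cultures and Scd1 in TRAP kept their direction under every alternative run. By difference in mean log2 TPM, Scd1 in FI3OE was at -0.97 and Scd3 at -3.29, and in replicates 1 and 2 Scd1 in TRAP was at 0.55. Scd2 in TRAP was at -1.62 in replicates 3 to 6 and at 0.64 in replicates 1 and 2, the reverse of the value over all libraries, and with single libraries left out it ranged from -1.09 to -0.72. Scd3 in TRAP ranged from -0.01 to 0.16 when single libraries were left out, changing sign without FI3KO replicate 2 (-0.0098). Genes past both cutoffs in FI3OE numbered 342 with 18 libraries fitted together and 5960 with no fold cutoff, against 583. Pathway genes that passed the adjusted p numbered 20 in the 18-library fit, where 1572 of all 17289 genes did. In TRAP the count of 901 became 574 with at least 10 counts in every library and 1355 in the 18-library fit. It was 1868 in replicates 3 to 6, 191 in replicates 1 and 2 and 5095 with no fold cutoff. At the adjusted p alone, 12 pathway genes passed in replicates 1 and 2, where 500 of all 14040 genes did. In replicates 1 and 2, Mogat1 was at -0.16, Soat1 at 0.31 and Srebf1 at -0.0025, and with a length offset Irf3 in TRAP was at 0.71; the cause was not tested. The replicate numbers did not pair the libraries (correlations of deviations -0.29 to 0.11). With the replicate block, 579 genes passed in FI3OE and 736 in TRAP, and Scd1 was at -0.91 and 0.79; Irf3 in TRAP had an adjusted p of 0.0538 and Srebf1 of 0.0927. Of 66 gene comparisons named, 8 lost their call when a single library was left out, 16 in FI3OE did so in the 18-library fit and 21 in TRAP in replicates 1 and 2. Scd3 and Scd4 rest on few reads.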
